A study of Mus musculus with 12 samples.

Results

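The genes that encode the subunits of the nuclear RNA polymerases and of the Mediator complex were followed across 4 treatments of CT26, a cell line from a mouse colon carcinoma. Members were the protein-coding genes of the table whose symbol is Polr1, Polr2 or Polr3 followed by a letter from a to m, or Med followed by a number, with or without a final l. The rule found 53 of the 12584 genes in the table, 26 of them polymerase subunits and 27 Mediator subunits. Med1, Med10, Med12l and Polr3c also fit the rule and were not analysed here. The treatments, each with 3 RNA-seq libraries taken after 24 h, were PBS, NP@M, NP-D@M and, with P added to that name, NP-D@MP. The labels explain neither D nor P, M or NP, and the series title names a nanodrug with an engineered cancer cell membrane, directed at cyclin-dependent kinases and paired with PD-L1 antibody. No group is labelled as carrying a genetic change, and nothing states whether libraries of 1 group are separate cultures. P-values therefore measure only the spread between these libraries, which may be technical.

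RNA polymerase I makes the precursor of ribosomal RNA, RNA polymerase II makes messenger RNA, and RNA polymerase III makes transfer RNA, 5S ribosomal RNA and other short RNAs. Each enzyme has a pair of large subunits that form the active site, a set of small subunits found in all of the enzymes, an assembly platform, and its own peripheral subunits, among them a stalk. Mediator bridges DNA-bound transcription factors and polymerase II. Its head and middle modules touch the polymerase, its tail binds activators, Med14 runs through the complex as a scaffold, and a dissociable kinase module holds Cdk8 or Cdk19 with cyclin C. Kinases of the cyclin-dependent family, Cdk7 and Cdk9 among them, phosphorylate the tail of the largest polymerase II subunit during initiation and release from pausing.

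Levels are given in FPKM, the fragments per kilobase of gene and per unit of library size, so they can be compared between genes per length. The authors divided by a library size that differed between the groups. It was 1.95 to 2.02 times the reads held in the table in the 6 libraries whose name lacks D (PBS and NP@M) and 0.533 to 0.565 times in the 6 libraries with D (NP-D@M and NP-D@MP). A gene that took the same share of the table's reads in all libraries therefore has a higher FPKM with D. The subunit genes together took 0.283 to 0.309% of the reads in the table without D and 0.130 to 0.144% with D, which is 41326 to 48527 reads and 16657 to 21400 reads. Mitochondrial genes took 3.30 to 4.20% of the reads without D and 7.41 to 14.4% with D, and the part of this in the values below was not tested. Of 8 colon epithelial markers only Krt18 and Krt20 were in the table, with a summed level of 15.1 to 18.7 FPKM without D and 73.0 to 91.1 FPKM with D, and they went apart. In NP-D@M against NP@M and NP-D@MP against PBS the log2 changes of Krt20 were 3.03 and 2.98, both called higher, and those of Krt18 were -0.65 and -0.81, the latter called lower. Of the markers of other cells, 6 of 8 for fibroblasts summed to 464 to 535 FPKM without D and 1216 to 1561 FPKM with D, and 4 were tested. In both comparisons Vim, at 1.56 and 1.84, was called higher, though not when each library was rescaled to the sum of its reads in the table (-0.27 and -0.05), and Col1a1, Col1a2 and Col3a1 were called lower. Of the myeloid markers, 4 of 8 summed to 8.88 to 10.7 and 12.5 to 26.0 FPKM, and of the 3 tested Cd68 and Lyz2 were called higher and Cd14 lower in both comparisons. With the same rescaling, 0 of these 3 were called higher in NP-D@M against NP@M and 1 in NP-D@MP against PBS. Of the markers of lymphocytes, 0 of 8 were in the table. Markers of endothelium (2 of 5) and retina (1 of 8) stayed at or below 0.615 FPKM, and the part of all these markers in the results was not tested. In bulk RNA, fewer cells that express a gene and less RNA per cell cannot be told apart.

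With either treatment that holds D, almost every polymerase and Mediator gene changed, and the changes went in opposite directions within each complex. The genes for both large subunits of polymerase II and of polymerase III, and most of the Mediator head and middle, fell. The genes for 4 of the 5 small subunits shared by all polymerases, for the stalk subunit Polr2g, and for Med30, Med25 and Med16 rose with the authors' values, although 2 of the small subunits, Polr2e and Polr2k, had a change below 0, not called, in at least 1 comparison when rescaled to table reads. In NP-D@M against NP@M, 50 of the 53 genes were called by limma (a Benjamini-Hochberg adjusted p under 0.05 across 10101 genes), 21 higher and 29 lower, where 89.5% of all genes tested were called, 41.8% higher and 47.7% lower. In NP-D@MP against PBS, which shares no library with the first comparison and differs by more than D, 52 genes were called, 22 higher and 30 lower, where 90.5% of all genes were called, 43.2% higher and 47.3% lower. The share of subunit genes called was thus near the background in both comparisons, and it is the direction of each gene that is described here. Of the genes called lower, 10 were under 1 FPKM in all libraries with D and were tested only because of their level without D.

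The median log2 change of the 53 genes was -0.66 in NP-D@M against NP@M and -0.68 in NP-D@MP against PBS, on the log2(FPKM + 1) scale, where the added 1 shrinks the change of weakly expressed genes. Over all genes tested it was -0.19 and -0.16. Relative to all genes the medians were thus -0.47 and -0.52, but with genes of mean 5 FPKM or more, 28 of the 53, they were -0.0241 and 0.0761. Each library was also rescaled to the sum of its reads in the table, called rescaling to table reads here. Then the medians of all genes moved to -1.44 and -1.44, a shift of -1.24 and -1.27, and the calls became 5 higher and 41 lower in the first comparison (17.5% and 70.5% of all genes) and 6 higher and 42 lower in the second (17.5% and 70.8%). For that reason each rise with D below is given with its value in that scaling. The libraries of the groups did not overlap for 49 genes in the first comparison (87.3% of all genes) and for 53 in the second (93.0%). All 53 genes had the same sign in both comparisons, as did 97.8% of all genes, and 49 were called in both, 21 higher, 28 lower and 0 in opposite directions. The share of all genes called in both was not counted. With 89.5% and 90.5% of all genes called in the single comparisons, these counts are not read as a result about the subunits. In both comparisons, 5 genes were called higher and 22 lower with the authors' values, with scaling by median ratios, rescaled to table reads and after quantile normalization. The 5 were Polr2f, Polr2g, Polr2l, Med25 and Med30. The 22 include Med4, Med6, Med8, Med17, Med26, Med31, Polr3a and Polr3f, which were tested only because of their level without D. How many of all genes kept their call in this way was not counted, so the 5 and the 22 are a description.

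**Figure D1:**
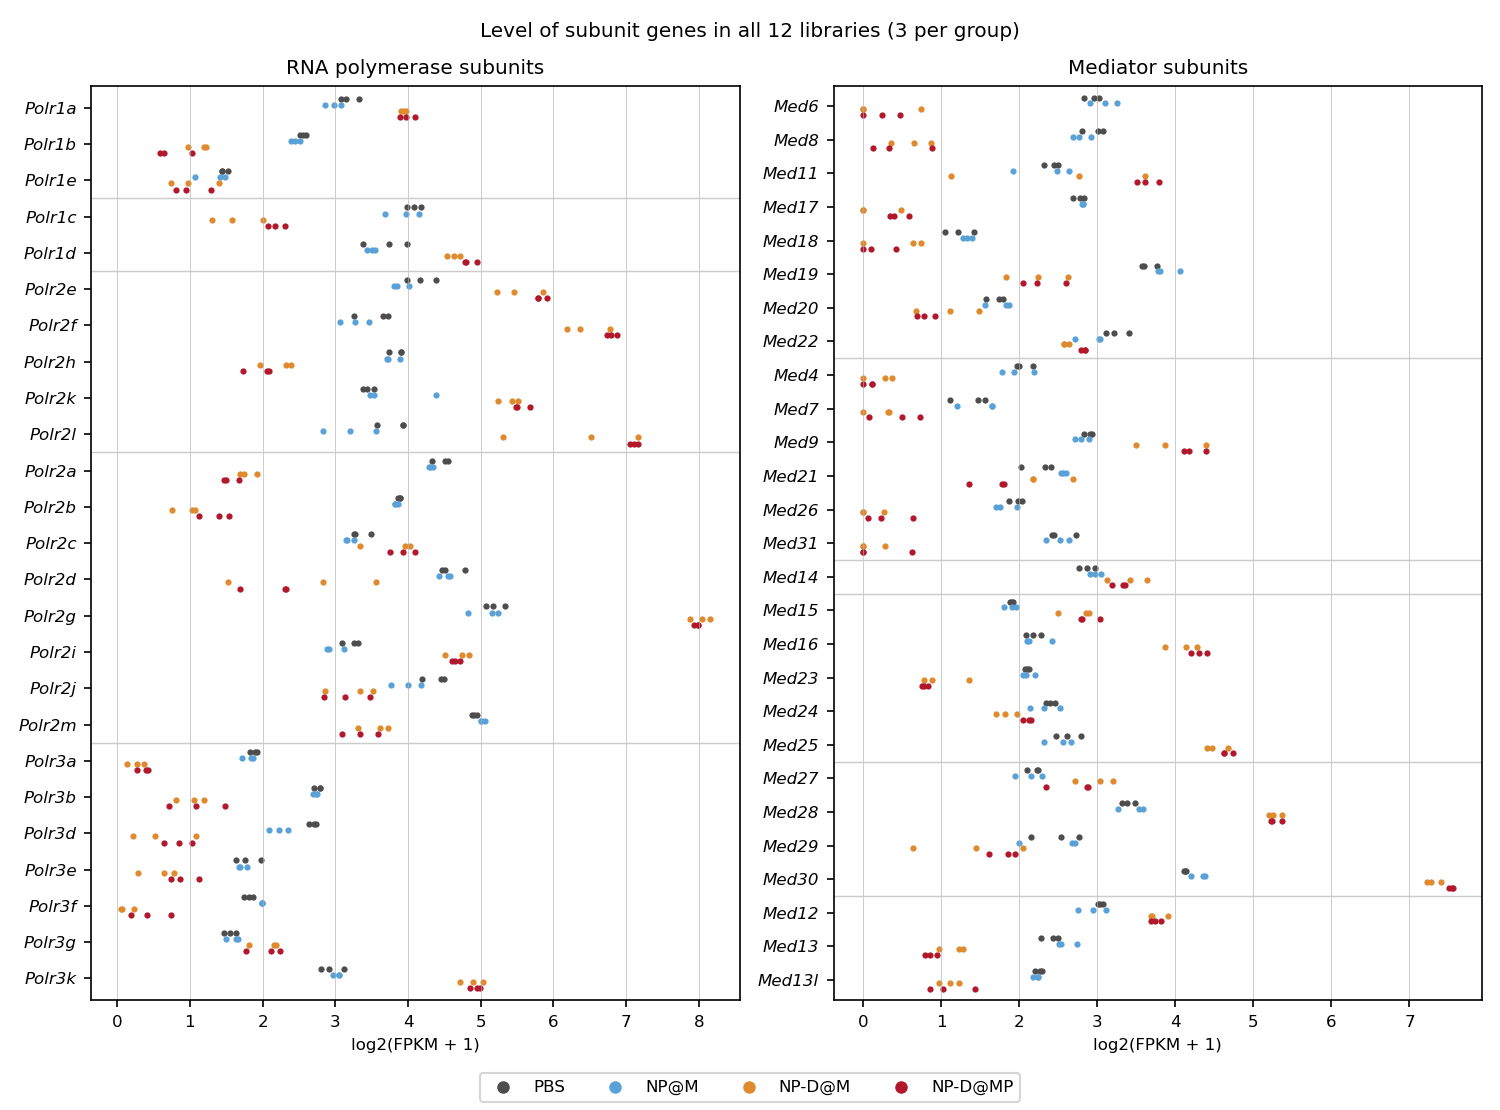
Level of 52 of the 53 subunit genes, as log2(FPKM + 1) on the x axis, in all 12 libraries, with polymerase subunits and Mediator subunits in separate panels and 1 point per library coloured by treatment. The 6 libraries with D stand apart from the 6 without D for most genes, to the right for Polr2g and Med30 and to the left for Polr2a and Med17, while PBS and NP@M lie together.

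**Figure D2:**
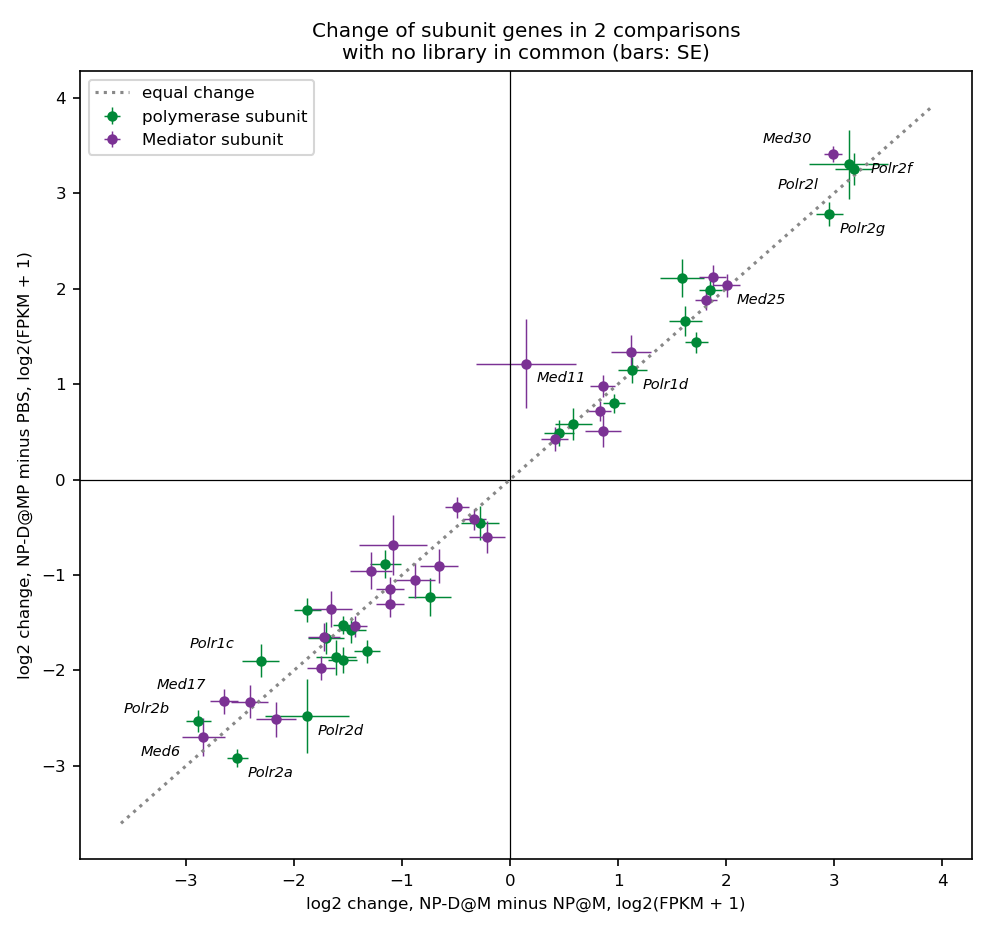
Log2 change of 52 of the 53 subunit genes in NP-D@M against NP@M (x axis) and in NP-D@MP against PBS (y axis), on the log2(FPKM + 1) scale in the authors' scaling, with SE bars and a dotted line of equal change. The points run along that line from Polr2b and Polr2a at the lower left to Med30, Polr2f and Polr2l at the upper right, with Med11 the farthest from it at a difference of 1.06.

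Without D, no subunit gene was called. In NP@M against PBS limma called 0 of the 53 genes, where 0.0099% of all genes were called, and voom on the recovered reads also called 0. At an unadjusted p under 0.05 there were 4, where 10.8% of all genes reached that value. Log2 changes ran from -0.62 for Polr2l to 0.36 for Polr2k, and the smallest adjusted p was 0.448. The libraries of the groups did not overlap for 10 genes, where 28.4% of all genes did not overlap. With PBS, levels ran from 1.36 FPKM for Med18, a head subunit, to 35.6 FPKM for Polr2g, a stalk subunit of polymerase II.

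Promoter sequences are shown for the 3 genes with the largest fall and the 3 with the largest rise in NP-D@M against NP@M among the genes whose only annotated window holds at most 30 bases of a UTR. The windows are the 250 bases upstream of the transcription start in RefSeq on GRCm38.p6, printed 5′ to 3′ on the gene's own strand. Capitals mark CCGGAAG and GGGCGG on either strand (CTTCCGG and CCGCCC on the other), words that also occur in the sites of ETS and Sp/KLF factors. Med6 (chr12:81595009-81595258, minus strand), Med17 (chr9:15279907-15280156, minus strand) and Polr2a (chr11:69758634-69758883, minus strand) fell. Med16 (chr10:79908939-79909188, minus strand), Polr3k (chr2:181864110-181864359, plus strand) and Med28 (chr5:45519979-45520228, plus strand) rose with the authors' values, and rescaled to table reads Polr3k and Med28 were not called in either comparison and Med16 only in NP-D@MP against PBS.
Med6: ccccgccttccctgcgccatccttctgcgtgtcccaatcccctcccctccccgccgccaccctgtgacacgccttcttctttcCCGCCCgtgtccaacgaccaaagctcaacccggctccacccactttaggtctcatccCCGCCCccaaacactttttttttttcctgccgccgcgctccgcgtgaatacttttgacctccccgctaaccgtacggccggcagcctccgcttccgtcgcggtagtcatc
Med17: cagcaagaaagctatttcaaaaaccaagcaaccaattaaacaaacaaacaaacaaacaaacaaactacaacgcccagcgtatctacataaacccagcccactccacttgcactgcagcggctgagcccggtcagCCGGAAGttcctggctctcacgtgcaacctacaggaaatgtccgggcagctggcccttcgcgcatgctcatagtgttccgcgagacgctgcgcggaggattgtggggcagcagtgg
Polr2a: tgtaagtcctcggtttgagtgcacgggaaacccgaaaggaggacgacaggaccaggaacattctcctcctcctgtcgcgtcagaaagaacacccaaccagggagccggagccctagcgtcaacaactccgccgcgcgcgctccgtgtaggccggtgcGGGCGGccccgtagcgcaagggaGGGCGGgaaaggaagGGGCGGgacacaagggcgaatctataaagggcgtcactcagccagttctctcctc
Med16: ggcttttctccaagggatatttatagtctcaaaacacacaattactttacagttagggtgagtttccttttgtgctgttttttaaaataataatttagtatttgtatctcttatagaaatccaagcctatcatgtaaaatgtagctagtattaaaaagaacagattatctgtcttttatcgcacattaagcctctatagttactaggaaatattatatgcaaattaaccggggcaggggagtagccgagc
Polr3k: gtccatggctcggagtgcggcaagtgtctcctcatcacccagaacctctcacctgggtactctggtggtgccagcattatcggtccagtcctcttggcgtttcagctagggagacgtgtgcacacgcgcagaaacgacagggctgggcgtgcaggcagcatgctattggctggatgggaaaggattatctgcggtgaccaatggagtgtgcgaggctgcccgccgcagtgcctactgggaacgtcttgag
Med28: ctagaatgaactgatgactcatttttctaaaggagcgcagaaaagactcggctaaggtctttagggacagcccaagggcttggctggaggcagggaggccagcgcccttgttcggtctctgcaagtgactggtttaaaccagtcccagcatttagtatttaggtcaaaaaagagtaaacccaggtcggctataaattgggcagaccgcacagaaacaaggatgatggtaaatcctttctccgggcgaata
The 3 windows of genes that fell held 1 to 3 marked words each and the other 3 windows held none. Of the 53 genes, 43 were matched to at least 1 window, and 27 of these 43 (62.8%) had GGGCGG, as did 35.4% of 27025 genes. The word was present for 7 of the 17 matched genes that rose in both comparisons and for 17 of the 22 that fell in both. CCGGAAG was present for 10 of 43 (23.3%), against 7.83% of all genes, 4 of the 17 and 6 of the 22. The other 7 motifs searched on both strands, overlaps allowed, were TATAAA (5 genes, 11.6%, against 14.3% of all genes), CCAAT (15 genes, 34.9%, against 37.5%), CCATNTT (6 genes, 14.0%, against 14.1%), TGACGTCA, CACGTG and AAGATGGC (1 gene each, against 1.77%, 6.86% and 1.83%) and the NRF1 palindrome (0 genes, against 0.877%). These are matches of letters in a fixed window and were not tested, and the choice of words was made after the values were seen. In these shares all genes means the 27025 genes with a window, without a filter on expression. Some of the counted windows, that of Polr2b among them, lie wholly within an annotated UTR.

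The genes for both large subunits of polymerase II fell to low levels in all 6 libraries with D. Polr2a (ENSMUSG00000005198, chr11:69733997-69758637, minus strand, GRCm38) encodes the largest subunit, whose repeated tail is the substrate of the transcription kinases. Its levels were 21.7, 22.3 and 19.2 FPKM with PBS, 18.7, 19.3 and 18.5 FPKM with NP@M, 2.36, 2.22 and 2.77 FPKM with NP-D@M and 2.19, 1.81 and 1.77 FPKM with NP-D@MP. No library with D reached the lowest without D. Polr2a fell by 2.52 on the log2(FPKM + 1) scale in NP-D@M against NP@M (SE 0.0981, limma adjusted p = 5.31e-10), its mean FPKM being 7.67-fold lower, and fell by 2.92 in NP-D@MP against PBS (SE 0.0981, limma adjusted p = 1.85e-10), 10.96-fold lower. Polr2b (ENSMUSG00000029250, chr5:77310147-77349324, plus strand) encodes the second largest subunit, which completes the active site. Its levels were 13.9, 13.5 and 13.8 FPKM with PBS, 13.1, 13.1 and 13.6 FPKM with NP@M, 1.10, 0.679 and 1.04 FPKM with NP-D@M and 1.63, 1.19 and 1.89 FPKM with NP-D@MP. It fell by 2.88 on the log2(FPKM + 1) scale in NP-D@M against NP@M (SE 0.117, limma adjusted p = 7.32e-10), its mean FPKM being 14.1-fold lower, and fell by 2.53 in NP-D@MP against PBS (SE 0.117, limma adjusted p = 2.00e-09), 8.74-fold lower. Both genes were called lower in every scaling tried.

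The large subunits of polymerase III fell too, from a lower level, whereas those of polymerase I parted. Polr3a, the largest subunit of polymerase III, was at 2.54, 2.74 and 2.81 FPKM with PBS, 2.30, 2.64 and 2.58 FPKM with NP@M, 0.102, 0.213 and 0.293 FPKM with NP-D@M and 0.207, 0.317 and 0.337 FPKM with NP-D@MP. Its 3 libraries with NP-D@M rest on 5, 9 and 14 reads and those with NP-D@MP on 9, 14 and 14 reads, so its levels with D are near the detection limit. The gene was tested only because of its level without D. Polr3a fell by 1.55 on the log2(FPKM + 1) scale in NP-D@M against NP@M (SE 0.0907, limma adjusted p = 1.56e-08), its mean FPKM being 12.4-fold lower, and fell by 1.52 in NP-D@MP against PBS (SE 0.0907, limma adjusted p = 1.77e-08), 9.40-fold lower. Polr3b, the second largest, was at 5.90, 5.90 and 5.53 FPKM with PBS, 5.65, 5.75 and 5.46 FPKM with NP@M, 0.747, 1.28 and 1.09 FPKM with NP-D@M and 1.80, 1.13 and 0.640 FPKM with NP-D@MP. It fell by 1.71 (SE 0.166, limma adjusted p = 1.38e-06) in NP-D@M against NP@M and fell by 1.66 (SE 0.166, limma adjusted p = 1.72e-06) in NP-D@MP against PBS, and both genes were lower in every scaling. Polr1b, the second largest subunit of polymerase I, had 4.71, 4.88 and 5.06 FPKM with PBS, 4.42, 4.74 and 4.26 FPKM with NP@M, 0.964, 1.33 and 1.28 FPKM with NP-D@M and 0.507, 0.568 and 1.04 FPKM with NP-D@MP. It fell by 1.32 (SE 0.1198, limma adjusted p = 7.04e-07) in NP-D@M against NP@M and fell by 1.80 (SE 0.1198, limma adjusted p = 4.68e-08) in NP-D@MP against PBS, again in every scaling. Polr1a, the largest subunit of polymerase I, went the other way with the authors' values, at 7.88, 9.03 and 7.46 FPKM with PBS, 7.48, 6.91 and 6.25 FPKM with NP@M, 14.6, 14.0 and 14.4 FPKM with NP-D@M and 13.8, 14.6 and 16.1 FPKM with NP-D@MP. Its libraries with D were all above those without. It rose by 0.96 (SE 0.0987, limma adjusted p = 2.16e-06) in NP-D@M against NP@M and rose by 0.80 (SE 0.0987, limma adjusted p = 1.08e-05) in NP-D@MP against PBS, but rescaled to table reads, its log2 changes were -0.70 and -0.93, both called lower. The ratio of Polr1a to Polr1b within a library needs no scaling. It was 1.67, 1.85 and 1.47 in the PBS libraries and 1.69, 1.46 and 1.47 for NP@M. For NP-D@M it was 15.2, 10.5 and 11.2, and for NP-D@MP 27.2, 25.8 and 15.5. The 6 ratios with D were all above the 6 without.

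Of the 5 small subunits common to all nuclear polymerases, Polr2f, Polr2l, Polr2e and Polr2k rose with the authors' values and Polr2h fell, but rescaled to table reads the sign of Polr2e turned in both comparisons and that of Polr2k in NP-D@M against NP@M. Their median log2 change in NP-D@M against NP@M was 1.62 with the authors' values, beside -0.19 for all genes, and -0.14 rescaled to table reads, beside -1.44. Polr2f (ENSMUSG00000033020, chr15:79141009-79151774, plus strand), the subunit known as RPB6, was at 12.3, 11.7 and 8.59 FPKM with PBS, 9.99, 8.62 and 7.39 FPKM with NP@M, 81.8, 71.6 and 109 FPKM with NP-D@M and 117, 109.7 and 106 FPKM with NP-D@MP. Every library with D was several times above every library without. Polr2f rose by 3.18 on the log2(FPKM + 1) scale in NP-D@M against NP@M (SE 0.169, limma adjusted p = 6.96e-09), its mean FPKM being 10.1-fold higher, and rose by 3.25 in NP-D@MP against PBS (SE 0.169, limma adjusted p = 5.60e-09), 10.2-fold higher. It was called higher in every scaling, and rescaled to table reads, its log2 changes were 1.43 and 1.43.

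Polr2l, known as RPB10, a small zinc-binding subunit, was at 14.3, 14.2 and 10.9 FPKM with PBS, 10.8, 8.22 and 6.09 FPKM with NP@M, 90.7, 38.7 and 142 FPKM with NP-D@M and 138, 132 and 143 FPKM with NP-D@MP. The second NP-D@M library lay well below the other 5 with D and still above all 6 without. Polr2l rose by 3.13 (SE 0.363, limma adjusted p = 6.23e-06) in NP-D@M against NP@M and rose by 3.30 (SE 0.363, limma adjusted p = 3.97e-06) in NP-D@MP against PBS, and rescaled to table reads, its log2 changes were 1.40 and 1.47, both called higher. Of the 50-base words of its transcripts, 21.0% also occur in other genes, so its reads could be shared in counting. Polr2k, known as RPB12, another zinc-binding subunit, was at 9.39, 9.77 and 10.5 FPKM with PBS, 10.2, 10.5 and 19.96 FPKM with NP@M, 42.0, 36.7 and 44.9 FPKM with NP-D@M and 43.9, 50.3 and 44.3 FPKM with NP-D@MP. The third NP@M library stood above the other 2 and below all those with D. Polr2k rose by 1.59 (SE 0.201, limma adjusted p = 1.31e-05) in NP-D@M against NP@M and rose by 2.11 (SE 0.201, limma adjusted p = 1.12e-06) in NP-D@MP against PBS, while rescaled to table reads, its log2 changes were -0.16 and 0.31, neither called. After quantile normalization it was not called in the former (adjusted p = 0.0752), and 21.6% of its words occur in other genes.

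Polr2e, known as RPB5, a subunit of the enzyme's jaw, was at 16.9, 19.8 and 14.8 FPKM with PBS, 15.1, 13.4 and 13.0 FPKM with NP@M, 36.3, 43.0 and 56.8 FPKM with NP-D@M and 59.4, 54.5 and 54.5 FPKM with NP-D@MP. All libraries with D were above all without, but rescaled to table reads, its log2 changes were -0.14 and -0.17, neither called. With the authors' values it rose by 1.62 (SE 0.154, limma adjusted p = 1.07e-06) in NP-D@M against NP@M and rose by 1.66 (SE 0.154, limma adjusted p = 8.74e-07) in NP-D@MP against PBS. Polr2h, known as RPB8, was the exception of this group at 14.0, 14.0 and 12.4 FPKM with PBS, 13.8, 12.1 and 12.2 FPKM with NP@M, 4.26, 4.02 and 2.91 FPKM with NP-D@M and 3.19, 3.23 and 2.32 FPKM with NP-D@MP. Its libraries with D were all below those without. Polr2h fell by 1.55 (SE 0.135, limma adjusted p = 4.97e-07) in NP-D@M against NP@M and fell by 1.89 (SE 0.135, limma adjusted p = 8.35e-08) in NP-D@MP against PBS, and was called lower in every scaling.

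The assembly platform that polymerases I and III share is a pair of Polr1c and Polr1d. Polr1c was at 17.1, 15.9 and 14.9 FPKM with PBS, 16.8, 11.8 and 14.7 FPKM with NP@M, 1.46, 3.03 and 1.98 FPKM with NP-D@M and 3.23, 3.94 and 3.51 FPKM with NP-D@MP. Polr1d was at 12.3, 14.8 and 9.38 FPKM with PBS, 10.4, 9.81 and 10.7 FPKM with NP@M, 25.4, 23.8 and 22.3 FPKM with NP-D@M and 29.97, 26.6 and 26.7 FPKM with NP-D@MP. Polr1c was above Polr1d in all 6 libraries without D, by less than 2-fold, and far below it in all 6 with D. Polr1c fell by 2.31 (SE 0.171, limma adjusted p = 1.23e-07) in NP-D@M against NP@M and fell by 1.90 (SE 0.171, limma adjusted p = 6.99e-07) in NP-D@MP against PBS, in every scaling. Polr1d rose by 1.13 (SE 0.135, limma adjusted p = 8.13e-06) in NP-D@M against NP@M and rose by 1.15 (SE 0.135, limma adjusted p = 7.30e-06) in NP-D@MP against PBS, but rescaled to table reads, its log2 changes were -0.59 and -0.64, both called lower, and after quantile normalization it was not called in the latter. In polymerase II the same place is taken by Polr2c and Polr2j. Polr2c rose from a mean of 8.13 ± 0.394 (SD, n = 3) to 13.0 ± 3.405 FPKM, by 0.59 in NP-D@M against NP@M (SE 0.168, limma adjusted p = 0.00613), but rescaled to table reads, its log2 changes were -1.08 and -1.15, both called lower. It was not called after quantile normalization, and 26.1% of its words occur in other genes. Polr2j fell by 0.74 (SE 0.199, limma adjusted p = 0.00409) in NP-D@M against NP@M and fell by 1.23 (SE 0.199, limma adjusted p = 1.05e-04) in NP-D@MP against PBS, from 14.9 ± 2.29 to 8.62 ± 2.17 FPKM in the former. In both platforms 1 partner was lower in every scaling while the other was not.

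The stalk of polymerase II is a pair of Polr2d and Polr2g, and its genes moved far apart. Polr2g was at 34.9, 39.4 and 32.6 FPKM with PBS, 34.7, 36.8 and 27.3 FPKM with NP@M, 264, 285 and 234 FPKM with NP-D@M and 253, 245 and 252 FPKM with NP-D@MP. Its mean was the highest of any subunit gene in each group, although Polr2m, at 31.2 FPKM, was above it in the third NP@M library. This rank depends on the length used, which was 868 bases for Polr2g in the table against 1247 exon bases in GENCODE M21. Polr2d was at 26.4, 21.8 and 21.1 FPKM with PBS, 22.8, 22.5 and 20.5 FPKM with NP@M, 1.87, 10.8 and 6.12 FPKM with NP-D@M and 2.24, 4.0 and 3.96 FPKM with NP-D@MP. Without D Polr2g was less than 2-fold above Polr2d, and with D no library of Polr2d came near any of Polr2g. Polr2g rose by 2.96 on the log2(FPKM + 1) scale in NP-D@M against NP@M (SE 0.124, limma adjusted p = 9.19e-10), its mean FPKM being 7.93-fold higher, and rose by 2.78 in NP-D@MP against PBS (SE 0.124, limma adjusted p = 1.47e-09), 7.02-fold higher. Rescaled to table reads, its log2 changes were 1.15 and 0.91, both called higher. Polr2d fell by 1.88 (SE 0.390, limma adjusted p = 7.23e-04) in NP-D@M against NP@M and fell by 2.48 (SE 0.390, limma adjusted p = 8.51e-05) in NP-D@MP against PBS, in every scaling, with a wide spread among the NP-D@M libraries. The ratio of Polr2g to Polr2d was 1.32, 1.81 and 1.55 in the PBS libraries and 1.52, 1.63 and 1.33 for NP@M. For NP-D@M it was 141, 26.3 and 38.3, and for NP-D@MP 113, 61.1 and 63.7.

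Of the remaining polymerase II genes, Polr2i and Polr2m also moved apart. Polr2i, known as RPB9, which takes part in proofreading, rose from 6.88 ± 0.712 to 25.1 ± 2.98 FPKM, by 1.73 in NP-D@M against NP@M (SE 0.110, limma adjusted p = 3.17e-08). In NP-D@MP against PBS it rose by 1.44. Rescaled to table reads, its log2 changes were 0.03, not called, and -0.32, called lower. Over 20% of its exon bases overlap Tbcb on the opposite strand, and how the counting treated strand is not stated. Polr2m, known as Gdown1, which makes polymerase II dependent on Mediator, fell from 31.5 ± 0.690 to 10.8 ± 1.74 FPKM, by 1.47 (SE 0.136, limma adjusted p = 8.44e-07), in every scaling.

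The subunits found only in polymerase III divided into 3 genes that rose and 5 that fell in both comparisons with the authors' values. Polr3a and Polr3f were under 1 FPKM in all libraries with D and were tested only because of their level without D, so these counts are a description. Of all genes, 41.8% rose and 47.7% fell in NP-D@M against NP@M, and 43.2% and 47.3% in NP-D@MP against PBS, so the split was near the background. Rescaled to table reads, 0 were higher and 6 lower in NP-D@M against NP@M (17.5% and 70.5% of all genes). In NP-D@MP against PBS there were then 0 and 7 (17.5% and 70.8%). Besides Polr3a and Polr3b, Polr3d, which pairs with Polr3e, fell by 1.61 (SE 0.185, limma adjusted p = 5.65e-06) in NP-D@M against NP@M and fell by 1.86 (SE 0.185, limma adjusted p = 1.60e-06) in NP-D@MP against PBS. Polr3f, of a trimer that takes part in promoter opening, went from 707, 676 and 716 reads with NP@M to 3, 2 and 11 with NP-D@M, and fell by 1.88 (SE 0.125, limma adjusted p = 4.86e-08) in NP-D@M against NP@M and fell by 1.36 (SE 0.125, limma adjusted p = 8.26e-07) in NP-D@MP against PBS. Polr3e fell by 1.15 (SE 0.146, limma adjusted p = 1.35e-05) in NP-D@M against NP@M and fell by 0.88 (SE 0.146, limma adjusted p = 1.27e-04) in NP-D@MP against PBS, and after quantile normalization it was not called in the latter. Polr3g, the partner of Polr3f in the trimer, and Polr3k, which acts in transcript cleavage and termination, rose with the authors' values by 0.45 and 1.85 in NP-D@M against NP@M. Rescaled to table reads, Polr3g was lower at -0.86, and Polr3k was at 0.15 and not called. Polr1e, of polymerase I, was not called in NP-D@M against NP@M (-0.28, SE 0.178, limma adjusted p = 0.154) and fell by 0.46 in NP-D@MP against PBS (SE 0.178, limma adjusted p = 0.0294), although after quantile normalization its changes were 0.35 and 0.15.

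**Figure D3:**
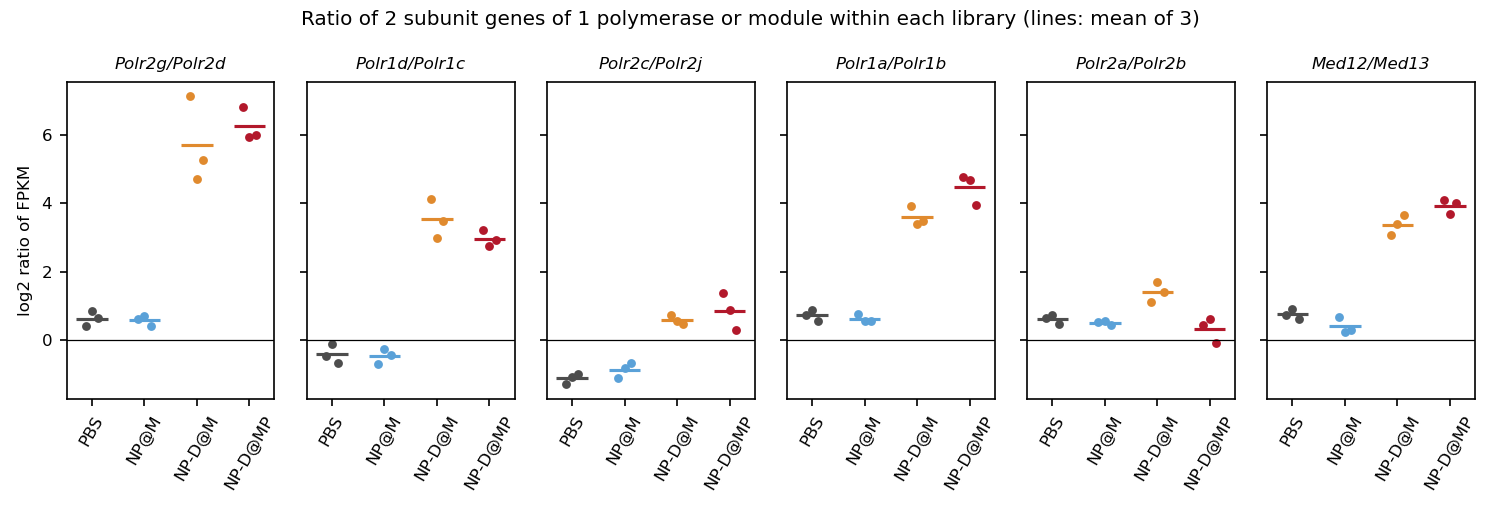
Log2 ratio of the FPKM of 2 partner genes within each library (y axis) for 6 pairs, by treatment on the x axis, with 1 point per library and a line at the mean of 3. For Polr2g to Polr2d the means were 0.63 and 0.57 without D and 5.71 and 6.25 with D, and for Polr1d to Polr1c -0.42, -0.47, 3.53 and 2.97.

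Ratios within a library do not depend on how the library was scaled, and they are given here as a description with no test, since the pairs were chosen after the values were seen. Mean log2 ratios went from -1.13 with NP@M to 5.14 with NP-D@M for Polr2f to Polr2a, from -0.56 to 5.57 for Polr3g to Polr3f, and from -0.87 to 0.59 for Polr2c to Polr2j. With NP-D@M, Polr3f had only 3, 2 and 11 reads, so the ratio to it rests on values near the detection limit. That ratio was 74.4, 98.9 and 14.4 in the NP-D@M libraries, and its mean log2 with NP-D@MP was 3.31. The pair that fell together, Polr2a to Polr2b, was at 0.51 and 1.41. Like the others, its libraries did not overlap in that comparison, while in NP-D@MP against PBS (0.31 and 0.61) they did.

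The Mediator head, which contacts polymerase II, had 7 of 8 genes called lower and 0 higher in NP-D@M against NP@M (47.7% and 41.8% of all genes), and 7 lower and 1 higher in NP-D@MP against PBS (47.3% and 43.2%). Of these genes Med6, Med8, Med17 and Med18 were under 1 FPKM in all libraries with D and were tested only because of their level without D, so the counts are a description. Med17 (ENSMUSG00000031935, chr9:15260351-15279931, minus strand), the central head subunit, was at 5.44, 6.11 and 5.83 FPKM with PBS, 6.01, 6.06 and 6.02 FPKM with NP@M, 0, 0 and 0.403 FPKM with NP-D@M and 0.506, 0.312 and 0.265 FPKM with NP-D@MP. With NP-D@M it had 0, 0 and 14 reads and with NP-D@MP 16, 10 and 8. A count of 0 allows up to 3 reads, so those levels are at or near the detection limit, and the libraries without D were tightly grouped. Med17 fell by 2.65 (SE 0.131, limma adjusted p = 3.49e-09) in NP-D@M against NP@M and fell by 2.32 (SE 0.131, limma adjusted p = 1.07e-08) in NP-D@MP against PBS, and no fold of means is given, since 2 of the 3 NP-D@M libraries had 0 reads. Med6, at the joint of head and middle, was at 6.77, 6.13 and 7.09 FPKM with PBS, 8.54, 7.56 and 6.47 FPKM with NP@M, 0, 0 and 0.673 FPKM with NP-D@M and 0.185, 0 and 0.388 FPKM with NP-D@MP. Its reads with D were 0, 0 and 8 and 2, 0 and 4. It fell by 2.84 (SE 0.195, limma adjusted p = 6.32e-08) in NP-D@M against NP@M and fell by 2.70 (SE 0.195, limma adjusted p = 9.89e-08) in NP-D@MP against PBS. Med8, another head subunit, was at 7.02, 7.39 and 5.998 FPKM with PBS, 5.44, 6.58 and 5.80 FPKM with NP@M, 0.278, 0.827 and 0.568 FPKM with NP-D@M and 0.0891, 0.264 and 0.841 FPKM with NP-D@MP. It fell by 2.17 (SE 0.187, limma adjusted p = 4.58e-07) in NP-D@M against NP@M and fell by 2.51 (SE 0.187, limma adjusted p = 1.24e-07) in NP-D@MP against PBS. Med17, Med6 and Med8 were called lower in every scaling.

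The other head genes changed less. Med19 fell by 1.65 (SE 0.192, limma adjusted p = 6.50e-06) in NP-D@M against NP@M and fell by 1.36 (SE 0.192, limma adjusted p = 3.58e-05) in NP-D@MP against PBS, in every scaling, and 9.59% of its words occur in other genes. Med18, Med20 and Med22 fell by 0.88, 0.66 and 0.33 in NP-D@M against NP@M, and none of these 3 calls held in every scaling. Over 20% of the exon bases of Med20 overlap a pseudogene, Kpna2-ps, on the opposite strand. Med11 was the exception, at 4.45, 4.65 and 4.01 FPKM with PBS, 5.20, 4.62 and 2.80 FPKM with NP@M, 5.81, 1.19 and 11.2 FPKM with NP-D@M and 10.4, 11.2 and 12.9 FPKM with NP-D@MP. The second NP-D@M library was below every library without D and the other 2 were above. With the authors' values Med11 was not called in NP-D@M against NP@M (0.15, SE 0.463, limma adjusted p = 0.758) and rose by 1.21 in NP-D@MP against PBS (SE 0.463, limma adjusted p = 0.0267). Rescaled to table reads, its log2 changes were -1.29, called lower, and -0.44, not called. In that scaling 8 head genes were called lower in the former comparison and 7 in the latter (70.5% and 70.8% of all genes).

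In the middle module, 4 of 6 genes were called lower and 1 higher in NP-D@M against NP@M (47.7% and 41.8% of all genes). In NP-D@MP against PBS, 5 were lower and 1 higher (47.3% and 43.2%). Rescaled to table reads, 6 were lower and 0 higher in each (70.5% and 17.5% of all genes, then 70.8% and 17.5%). Med4, Med7, Med26 and Med31 were likewise tested only because of their level without D, so these counts are a description. Med26, the subunit through which Mediator passes elongation factors to polymerase II, was at 2.64, 2.96 and 3.12 FPKM with PBS, 2.94, 2.24 and 2.37 FPKM with NP@M, 0, 0 and 0.203 FPKM with NP-D@M and 0.0446, 0.176 and 0.561 FPKM with NP-D@MP. Its reads with D were 0, 0 and 5 and 1, 4 and 12, so it was close to undetected there. Med26 fell by 1.72 (SE 0.148, limma adjusted p = 4.45e-07) in NP-D@M against NP@M and fell by 1.65 (SE 0.148, limma adjusted p = 6.49e-07) in NP-D@MP against PBS. Med31 was at 5.65, 4.45 and 4.35 FPKM with PBS, 4.09, 5.23 and 4.73 FPKM with NP@M, 0, 0 and 0.211 FPKM with NP-D@M and 0.541, 0 and 0 FPKM with NP-D@MP, from 0, 0 and 3 and 7, 0 and 0 reads with D. It fell by 2.41 (SE 0.172, limma adjusted p = 8.60e-08) in NP-D@M against NP@M and fell by 2.32 (SE 0.172, limma adjusted p = 1.18e-07) in NP-D@MP against PBS, and over 20% of its exon bases overlap 4930563E22Rik on the opposite strand. Both were lower in every scaling. Med4, a core subunit of the module, fell by 1.75 (SE 0.128, limma adjusted p = 1.10e-07) in NP-D@M against NP@M and fell by 1.98 (SE 0.128, limma adjusted p = 3.80e-08) in NP-D@MP against PBS, and Med7, which spans the module with Med21, fell by 1.29 (SE 0.192, limma adjusted p = 5.38e-05) in NP-D@M against NP@M and fell by 0.95 (SE 0.192, limma adjusted p = 5.77e-04) in NP-D@MP against PBS, the latter not called after quantile normalization (adjusted p = 0.0953). With D, Med4 rests on 0 to 8 reads per library and Med7 on 0 to 14. Over 20% of the exon bases of Med7 overlap 2310031A07Rik on the opposite strand. Med21 was not called in NP-D@M against NP@M (-0.21, SE 0.167, limma adjusted p = 0.240, and 0.07 after quantile normalization) and fell by 0.60 in NP-D@MP against PBS (SE 0.167, limma adjusted p = 0.00502), where after quantile normalization its change of -0.13 was not called. Med9 rose by 1.12 and 1.34 with the authors' values and was at -0.53 and -0.39 rescaled to table reads, both called lower.

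Med14, the scaffold between the modules, had small changes with the authors' values. It was at 6.27, 5.79 and 6.86 FPKM with PBS, 7.27, 6.53 and 6.82 FPKM with NP@M, 9.65, 11.4 and 7.70 FPKM with NP-D@M and 8.15, 9.24 and 9.06 FPKM with NP-D@MP. The libraries with D were above those without, by less than for the small polymerase subunits. Med14 rose by 0.41 (SE 0.124, limma adjusted p = 0.00824) in NP-D@M against NP@M and rose by 0.43 (SE 0.124, limma adjusted p = 0.00678) in NP-D@MP against PBS, but rescaled to table reads, its log2 changes were -1.22 and -1.23, both called lower, and after quantile normalization it was not called in the former (adjusted p = 0.0974).

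In the tail, which binds activators, 3 of 5 genes rose and 2 fell in both comparisons with the authors' values. Beside this, 41.8% of all genes rose and 47.7% fell in NP-D@M against NP@M, and 43.2% and 47.3% in NP-D@MP against PBS. Med16 was at 3.52, 3.85 and 3.24 FPKM with PBS, 3.38, 3.30 and 4.33 FPKM with NP@M, 13.6, 16.5 and 18.4 FPKM with NP-D@M and 20.2, 18.7 and 17.4 FPKM with NP-D@MP. All libraries with D were several times above those without. Med16 rose by 1.87 (SE 0.127, limma adjusted p = 5.40e-08) in NP-D@M against NP@M and rose by 2.12 (SE 0.127, limma adjusted p = 1.82e-08) in NP-D@MP against PBS, and rescaled to table reads, its log2 changes were 0.27 and 0.46, the former not called (adjusted p = 0.0575). Med25, a target of viral and cellular activation domains, was at 5.11, 5.92 and 4.54 FPKM with PBS, 5.33, 3.98 and 4.89 FPKM with NP@M, 20.2, 21.1 and 24.6 FPKM with NP-D@M and 25.7, 23.6 and 23.5 FPKM with NP-D@MP. Med25 rose by 2.004 (SE 0.121, limma adjusted p = 1.98e-08) in NP-D@M against NP@M and rose by 2.03 (SE 0.121, limma adjusted p = 1.73e-08) in NP-D@MP against PBS, and rescaled to table reads, its log2 changes were 0.35 and 0.31, both called higher. Med15, which binds SREBP activators, rose by 0.86 and 0.98 but was at -0.60 and -0.54 rescaled to table reads, both called lower. Med23 fell by 1.11 (SE 0.132, limma adjusted p = 7.95e-06) in NP-D@M against NP@M and fell by 1.31 (SE 0.132, limma adjusted p = 1.89e-06) in NP-D@MP against PBS, in every scaling. Med24 fell by 0.49 and 0.29, and after quantile normalization its changes of -0.04 and 0.08 were not called.

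At the boundary of head and tail stand Med27, Med28, Med29 and Med30, of which 3 rose with the authors' values. Of all genes, 41.8% rose in NP-D@M against NP@M and 43.2% in NP-D@MP against PBS. Med30 (ENSMUSG00000038622, chr15:52712408-52730564, plus strand) was at 16.7, 16.3 and 16.5 FPKM with PBS, 17.4, 19.5 and 19.8 FPKM with NP@M, 148, 154 and 169 FPKM with NP-D@M and 182, 186 and 187 FPKM with NP-D@MP. The replicates agreed closely in each group, and the libraries with D were far above the others. Med30 rose by 2.99 on the log2(FPKM + 1) scale in NP-D@M against NP@M (SE 0.0843, limma adjusted p = 6.98e-11), its mean FPKM being 8.32-fold higher, and rose by 3.41 in NP-D@MP against PBS (SE 0.0843, limma adjusted p = 4.29e-11), 11.2-fold higher. It was called higher in every scaling, and rescaled to table reads, its log2 changes were 1.20 and 1.57. Med28 rose from 10.1 ± 1.28 to 37.8 ± 2.29 FPKM (by 1.82, SE 0.103, limma adjusted p = 1.20e-08), but rescaled to table reads its changes of 0.08 and 0.09 were not called. Med27 rose by 0.86 and 0.51 and was at -0.66 and -1.02 in that scaling, both called lower. Med29 fell by 1.08 in NP-D@M against NP@M (SE 0.315, limma adjusted p = 0.00678), though its groups overlapped and it was not called after quantile normalization, and was not called in NP-D@MP against PBS (-0.68, SE 0.315, limma adjusted p = 0.0578).

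The kinase module parted as well. Med12, which activates the kinase, was at 7.402, 7.23 and 7.05 FPKM with PBS, 7.63, 6.70 and 5.73 FPKM with NP@M, 11.9, 14.0 and 11.97 FPKM with NP-D@M and 12.4, 11.9 and 13.1 FPKM with NP-D@MP. Its libraries with D were all above those without. Med12 rose by 0.83 (SE 0.105, limma adjusted p = 1.33e-05) in NP-D@M against NP@M and rose by 0.71 (SE 0.105, limma adjusted p = 4.85e-05) in NP-D@MP against PBS, but rescaled to table reads, its log2 changes were -0.82 and -0.99, both called lower. Med13, which links the module to core Mediator, was at 4.42, 3.83 and 4.63 FPKM with PBS, 4.77, 5.68 and 4.69 FPKM with NP@M, 1.42, 1.34 and 0.955 FPKM with NP-D@M and 0.728, 0.925 and 0.815 FPKM with NP-D@MP. Its paralogue Med13l was at 3.80, 3.62 and 3.88 FPKM with PBS, 3.51, 3.72 and 3.72 FPKM with NP@M, 0.957, 1.34 and 1.17 FPKM with NP-D@M and 1.03, 1.70 and 0.809 FPKM with NP-D@MP. Both were lower in all libraries with D. Med13 fell by 1.44 (SE 0.111, limma adjusted p = 1.71e-07) in NP-D@M against NP@M and fell by 1.54 (SE 0.111, limma adjusted p = 9.50e-08) in NP-D@MP against PBS. Med13l fell by 1.11 (SE 0.133, limma adjusted p = 8.37e-06) in NP-D@M against NP@M and fell by 1.15 (SE 0.133, limma adjusted p = 6.30e-06) in NP-D@MP against PBS. Both were called lower in every scaling. The mean log2 ratio of Med12 to Med13 was 0.76 for PBS, 0.40 for NP@M, 3.37 for NP-D@M and 3.93 for NP-D@MP. Of the kinase itself, Cdk8 went from 5.13 ± 0.793 FPKM with NP@M to 0.827 ± 0.197 FPKM with NP-D@M (SD, n = 3), a log2 change of -1.75 (limma adjusted p = 9.91e-08), and of -1.50 (limma adjusted p = 3.85e-07) in NP-D@MP against PBS. Its cyclin, Ccnc, changed by -0.80 (limma adjusted p = 1.93e-05) and -0.52 (limma adjusted p = 5.93e-04), the latter not called after quantile normalization. Cdk19 was not analysed here.

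**Figure D4:**
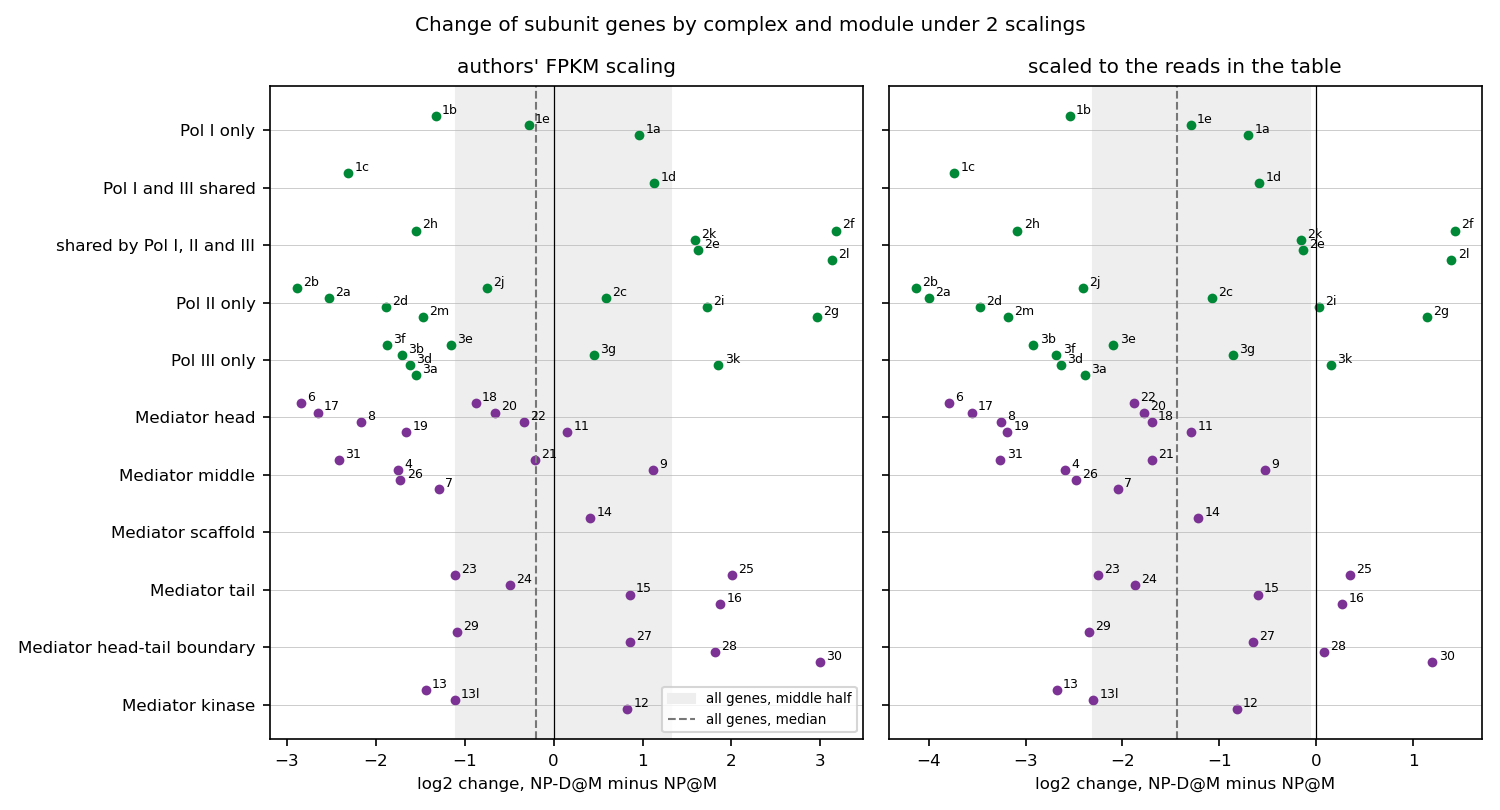
Log2 change of 52 of the 53 subunit genes in NP-D@M against NP@M (x axis), by complex and module (y axis), with the authors' values in 1 panel and rescaled to table reads in the other, over the middle range (grey band) and median (dashed line) of all genes tested. The median of all genes was -0.19 with the authors' values and -1.44 in the other scaling, and Med30, Polr2f, Polr2g and Polr2l stay to the right in both panels.

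Between NP-D@MP and NP-D@M, whose names differ by P, no subunit gene was called with all libraries in the fit. Limma called 0 of 53, where 0.0495% of all genes were called, and voom also called 0. At an unadjusted p under 0.05 there were 11, where 17.0% of all genes reached that value. The libraries did not overlap for 9 genes, where 14.2% of all genes did not overlap. Changes ran from -0.70 for Med21 (SE 0.167, limma adjusted p = 0.172) to 1.14 for Med11 (SE 0.463, limma adjusted p = 0.264). The third NP-D@M library differed most from its replicates. The chi-square of counts per degree of freedom was 44.7 and 57.7 for its pairs and at most 17.4 for any other pair of replicates. What lies behind this difference was not tested. Without the third NP-D@M library, limma called 8 of the 53 genes, where 12.5% of all genes were then called, 9.59% higher and 2.87% lower: Polr2l (1.20), Med11 (1.69), Med9 (0.55), Polr2e (0.49) and Med17 (0.44) higher, and Med21 (-0.78), Med20 (-0.50) and Med13 (-0.38) lower with NP-D@MP.

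Most genes of 5 of the 6 lists of partners fell in both comparisons, the assembly factors being the exception. Beside the counts that follow, 41.8% of all genes rose and 47.7% fell in NP-D@M against NP@M and 43.2% and 47.3% in NP-D@MP against PBS. These shares were, rescaled to table reads, 17.5% and 70.5%, then 17.5% and 70.8%. Of 29 general transcription factors of polymerase II, 8 rose and 19 fell in NP-D@M against NP@M and 9 rose and 18 fell in NP-D@MP against PBS, with medians of -0.80 and -0.64 beside -0.19 and -0.16 for all genes. Rescaled to table reads, 3 were higher and 25 lower in each. Taf10, of TFIID, had the largest rise of that list, from 7.41 ± 0.662 to 113 ± 41.5 FPKM (SD, n = 3), by 3.71 (limma adjusted p = 7.21e-09), and it was also higher rescaled to table reads (1.97). Gtf2b, which encodes TFIIB, had the largest fall in that comparison, at -1.94 (limma adjusted p = 5.87e-08), and Cdk7, the kinase of TFIIH, in NP-D@MP against PBS, at -2.05 (limma adjusted p = 1.35e-07). Of 28 elongation and pausing factors, 6 rose and 21 fell in each comparison, and 2 in the former and 1 in the latter were higher when rescaled to table reads. Ctr9, of the PAF complex, changed by -2.19 (limma adjusted p = 1.05e-08) in NP-D@MP against PBS. Ssrp1, of the histone chaperone FACT, had the largest rise with the authors' values, at 2.24 (limma adjusted p = 3.77e-10), and 0.42 rescaled to table reads, but after quantile normalization its change was -0.22.

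Of 20 factors of polymerases I and III, 2 rose and 15 fell in NP-D@M against NP@M and 3 rose and 15 fell in NP-D@MP against PBS, with medians of -0.88 and -0.74. In the former the largest rise was that of Snapc5, at 1.39 (limma adjusted p = 0.00149), and the largest fall that of Taf1b, of the polymerase I factor SL1, at -2.09 (limma adjusted p = 4.55e-07). Rescaled to table reads, 0 of these 20 were higher and 19 lower in each comparison, and Snapc5, at 0.26 in the former, was not called. In NP-D@MP against PBS the largest fall was that of Gtf3c5, of TFIIIC, at -2.04 (limma adjusted p = 5.04e-09). Of the 6 polymerase subunits that carry other symbols, 2 rose and 4 fell in the former comparison and 1 rose and 4 fell in the latter. Rescaled to table reads, 1 was higher and 5 lower in the former and 0 and 5 in the latter. Among them Crcp, of polymerase III, changed by 2.06 (limma adjusted p = 1.09e-08) and 1.82 (limma adjusted p = 3.07e-08). These changes were 0.30 and 0.01 rescaled to table reads, the latter not called. Znrd1, of polymerase I, had the largest fall in the former at -1.44 (limma adjusted p = 6.06e-05), and Polrmt, the mitochondrial polymerase, in the latter at -1.67 (limma adjusted p = 9.18e-07). Of 9 assembly factors, 4 rose and 2 fell, then 5 rose and 2 fell, but 0 were higher and 7 lower in each comparison when rescaled to table reads. Pih1d1, of the R2TP chaperone, changed by 1.84 (limma adjusted p = 6.17e-08) in NP-D@M against NP@M, or by 0.08 rescaled to table reads, which was not called. In that comparison Rpap2, which takes part in nuclear import of polymerase II, changed by -1.13 (limma adjusted p = 2.10e-06). In the other 2 comparisons 0 genes of each of these lists were called.

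**Figure D5:**
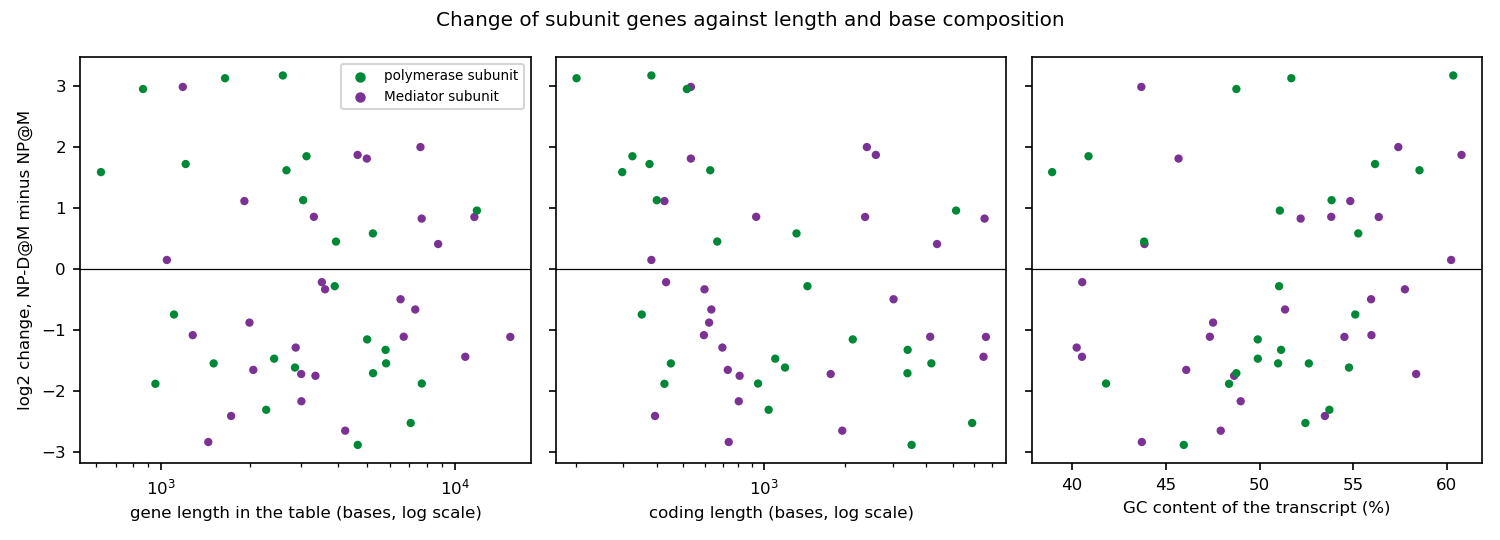
Log2 change of 52 of the 53 subunit genes in NP-D@M against NP@M (y axis, authors' scaling) against the length of the gene in the table, its coding length and the GC content of its transcript (x axes), with 1 point per gene coloured by complex. Points lie on both sides of 0 among short and long genes, and the correlation with the length in the table was -0.13 over the 53 genes.

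The change of each gene was also set beside its length and base composition. Across the 53 genes, which share libraries and are not independent replicates, Pearson's r of the log2 change in NP-D@M against NP@M was -0.13 with the length in the table (rho -0.07), beside -0.37 over 10101 genes. With coding length it was -0.33 (rho -0.36), beside -0.29 over 8895 genes, and with GC content of the transcript 0.19 (rho 0.25), beside 0.21. The 21 genes that rose in both comparisons had a median coding length of 612 bases and the 28 that fell 1068 bases, with ranges of 201 to 6570 and 351 to 6648 bases. In NP@M against PBS, where 0 genes were called, the changes had an r of -0.67 with GC content (rho -0.69) over the 53 genes and -0.69 (rho -0.73) over 8895 genes, and its part in those values was not tested.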

How the data were processed

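Total RNA of CT26 cells was made into libraries with an Illumina TruSeq kit, per the labels' protocols, although that text names retinas as the source. The authors deposited 1 table of FPKM values per gene, with identifiers, coordinates and lengths. Per the submitters' processing notes, the tool was Bowtie 0.12.2 and the build mm8, whereas 12571 of the 12584 identifiers and 51 of the 53 members' coordinates (all but Polr2d and Polr2g) match GENCODE M21 on GRCm38. The counter and its strand setting are not given in the sources used here. FPKM times length was a whole multiple of 1 step per library for 100% of values (relative tolerance 1e-06), so reads were recovered: 12.8 to 15.7 M per library in the table, against a library size behind the FPKM values of 28.2 to 31.1 M without D and 7.13 to 8.40 M with D. In a 1 kb gene 1 read equals 0.0322 to 0.0355 FPKM without D and 0.119 to 0.140 FPKM with D. Between replicates the chi-square of counts per degree of freedom was 6.93 to 57.7, above sampling noise, so each counted as 1 sample.

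Changes on the log2(FPKM + 1) scale were tested with limma 3.58.1 (R 4.3.3), all 12 libraries in 1 fit, for genes with at least 1 FPKM in at least 3 libraries. All 53 members passed, 10 of them only through libraries without D. Called means a Benjamini-Hochberg adjusted p under 0.05 over 10101 genes, and folds are ratios of mean FPKM. Alternatives were 3 scalings, a pseudocount of 0.1, other filters, trend and robust settings of limma, voom on the recovered reads, a fit on the 6 libraries compared, and leaving out each library. Only the main limma fit was run on simulated data, in which far fewer genes changed than here. The scalings, the ratios and the other settings were not simulated.

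By the rule for named genes, values in every library are given for the large and shared polymerase subunits, for Med12, Med13, Med13l, Med14, Med17 and Med26, and for the 5 largest rises and falls per comparison. Med11 and the genes behind a count of 8 are named as well, chosen after their values were seen. The members and lists were chosen with earlier results of these data known. The assignment to modules, the partner pairs, the coding length, the GC content and the promoter words, 9 in all with 2 set in capitals, were chosen after seeing the values. Shared sequence was counted as the share of a gene's 50-base words that occur in other genes of GENCODE M21. Some genes counted in the totals, 1 of them a member that is also left out of the figures, are not reported here.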

Additional observations from a re-analysis of the deposited data

How the results depend on the processing

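Of the 21 genes called higher in both comparisons with D, 8 kept their sign in every scaling tried. The share of all genes that did so was not counted. Rescaled to table reads, the median of all genes shifted by -1.24 and -1.27, so the 8 are not read as a result about the subunits. Depth limits the falls of the 10 genes under 1 FPKM in all libraries with D (Med4, Med6, Med7, Med8, Med17, Med18, Med26, Med31, Polr3a and Polr3f), which rest on 0 to 37 reads per library there. Rescaled to table reads, the changes in NP-D@M against NP@M turned to -0.82 for Med12, -1.22 for Med14, -0.70 for Polr1a, -0.59 for Polr1d, -0.14 for Polr2e and -0.16 for Polr2k, and those in NP-D@MP against PBS to -0.99 for Med12, -1.23 for Med14, -0.93 for Polr1a, -0.64 for Polr1d and -0.17 for Polr2e. Those of Med9, Med11, Med15, Med27, Polr2c and Polr3g turned in both comparisons, and that of Polr2i in NP-D@MP against PBS. The genes called higher then numbered 5 in NP-D@M against NP@M and 6 in NP-D@MP against PBS, in place of 21 and 22. With genes of mean 5 FPKM or more, 28 of the 53 genes were tested, of which 27 and 28 were called in these comparisons, 9 lower in each. The share of all genes called with that filter was not counted. The median of the subunit genes relative to all genes, -0.47 and -0.52, moved to -0.16 and -0.16 after quantile normalization, to -0.0241 and 0.0761 with genes of mean 5 FPKM or more and, in NP-D@MP against PBS, to -0.66 with a pseudocount of 0.1. The correlation with length, -0.13 in NP-D@M against NP@M, moved to 0.0585 after quantile normalization and -0.0696 with genes of mean 5 FPKM or more. In NP-D@MP against PBS it was -0.15 and moved to -0.12 rescaled to table reads, 0.0351 after quantile normalization, -0.10 with genes of mean 5 FPKM or more and -0.12 with a pseudocount of 0.1. In NP@M against PBS it was 0.05 and moved to -0.0848 with genes of mean 5 FPKM or more.

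Leaving out each library in turn gave 49 to 52 called genes in NP-D@M against NP@M (21 to 22 higher, 28 to 30 lower), 49 to 50 in NP-D@MP against PBS (20 to 21 higher, 28 to 29 lower), 0 to 8 in NP-D@MP against NP-D@M (0 to 5 higher, 0 to 3 lower) and 0 in NP@M against PBS. The 8 came without the third NP-D@M library, where 12.5% of all genes were called. For the other libraries left out, the share of all genes called was not counted. Of the 87 changes of named subunit genes, 49 were called. Of these 49, 11 turned sign and 1, Polr2k in NP-D@MP against PBS (0.31), lost its call when rescaled to table reads, and 3 lost their call after quantile normalization: Med14 (0.25) and Polr2k (0.57) in NP-D@M against NP@M and Polr1d (0.27) in NP-D@MP against PBS. The cause was not tested, beyond the change of scale itself. No paired analysis was possible because the groups share no replicate numbers, the titles numbering the 12 libraries in 1 series.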
